A study of Nothobranchius furzeri with 6 samples.

Results

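Cluster 1 of the killifish retina atlas is a group of bipolar cells, chosen here as all cells that the authors annotated as bipolar and gave the cluster number 1. It held 1414 of the 17770 bipolar cells and of 37243 cells in all, and it is 1 of 13 bipolar clusters among 29 clusters. The other 12 bipolar clusters, with 16356 cells, were pooled or taken singly for comparison. The data are single-cell RNA-seq of neural retinas from the turquoise killifish Nothobranchius furzeri, a short-lived vertebrate used to study ageing. All fish were untreated female wild types of the GRZ-AD strain, with no transgene, and were 6, 12 or 18 weeks old. Each age had 2 libraries, and a library pooled the retinas of 3 fish at 6 weeks and of 2 fish at 12 and 18 weeks, so that no value belongs to a single fish. Libraries are named by age in weeks and replicate, as in 18w-1 and 18w-2. The retinal pigment epithelium (RPE) had been removed before papain dissociation, and transcripts were captured by their 3' end in droplets.

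Bipolar cells carry the signal of rods and cones from the outer to the inner retina. Photoreceptors release glutamate onto their dendrites, and their axon terminals release glutamate from ribbon synapses onto amacrine and ganglion cells. In mammals ON bipolar cells sense glutamate with the metabotropic receptor mGluR6, whose G protein closes the cation channel TRPM1. OFF bipolar cells of mammals sense it with AMPA and kainate receptors, which are ion channels opened by glutamate. In mammals and fish both classes are divided into many types, which differ in their receptors, adhesion molecules and transcription factors.

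Cluster 1 was present in every library, with 245 and 239 cells at 6 weeks, 271 and 252 cells at 12 weeks and 213 and 194 cells at 18 weeks. These cells held 407940 to 517809 unique molecular identifiers (UMIs, each a captured transcript) per library, and no cell barcode of the cluster occurred in more than 1 library. Levels are given as CPM, the UMIs of a gene per 1000000 UMIs of the cluster's cells in 1 library. Since the authors made the clusters from these same transcripts, every comparison of cluster 1 with other clusters is a description without a test. A level in the other bipolar cells is a mean over 12 clusters, which 1 or a few of them can carry. A gene name with an ending such as (2OF2) is 1 of several similar entries, and where a name has several entries the identifier is given and the value of a single entry is uncertain.

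The 6 genes given as markers set the cells apart in each of the libraries. At least 3 of them were detected in 1322 cells of cluster 1 (93.5%), against 209 other bipolar cells (1.28%). None was detected in 2 cells of cluster 1 and in 9896 other bipolar cells, at a median of 1815.5 and 1977 UMIs per cell. Across libraries the share of cluster 1 cells with at least 3 markers ran from 89.3% to 97.7%. FIBCD1, which encodes a transmembrane receptor of acetylated sugars in humans, was detected in 93.4% of cluster 1 cells and 7.32% of other bipolar cells, and in 80.3% and 4.89% once every cell was thinned to 1000 UMIs. NETO2(2OF2), an auxiliary subunit of kainate receptors in rodents, was detected in 86.1% and 13.0%, and in 69.2% and 7.92% after thinning. COL14A1(2OF2), a collagen on the surface of fibrils, was detected in 72.1% and 9.90%. GSG1L(2OF2), which belongs to the auxiliary subunits of AMPA receptors in rodents, was found in 67.5% and 14.4%. TNC, the matrix glycoprotein tenascin-C, was found in 67.4% and 2.77%, and the zinc finger gene ZNF385D in 51.5% and 2.12%. The shares outside the cluster can hold both free RNA and expression in other types, which cannot be told apart in these counts.

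By level, FIBCD1 (XLOC_006369) had 1713 and 1619 CPM in the cluster at 6 weeks, 1569 and 1939 CPM at 12 weeks and 2032 and 2109 CPM at 18 weeks, against 84.3 to 133 CPM in the other bipolar cells. All 6 libraries of the cluster lay far above those of the other bipolar cells, and the next cluster, 13, averaged 312 CPM. NETO2(2OF2) (XLOC_019254) had 1247, 1199, 1078, 1112, 1135 and 1134 CPM in the libraries from 6 to 18 weeks, against 91.1 to 99.4 CPM in the other bipolar cells. It was less exclusive, as cluster 9 averaged 711 CPM and cluster 14 averaged 298 CPM. ZNF385D (XLOC_011093) ran from 368 to 566 CPM, against 7.97 to 14.7 CPM. COL14A1(2OF2) (XLOC_010224) ran from 796 to 1060 CPM, against 70.8 to 92.2 CPM, with 512 CPM in cluster 25. Of several TNC entries, XLOC_023607 averaged 381 CPM, against 8.57 CPM, and XLOC_000576 averaged 252 CPM, against 3.49 CPM. GSG1L(2OF2) (XLOC_006794) ran from 588 to 713 CPM, against 80.9 to 95.4 CPM, and cluster 16 averaged 274 CPM.

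**Figure D1:**
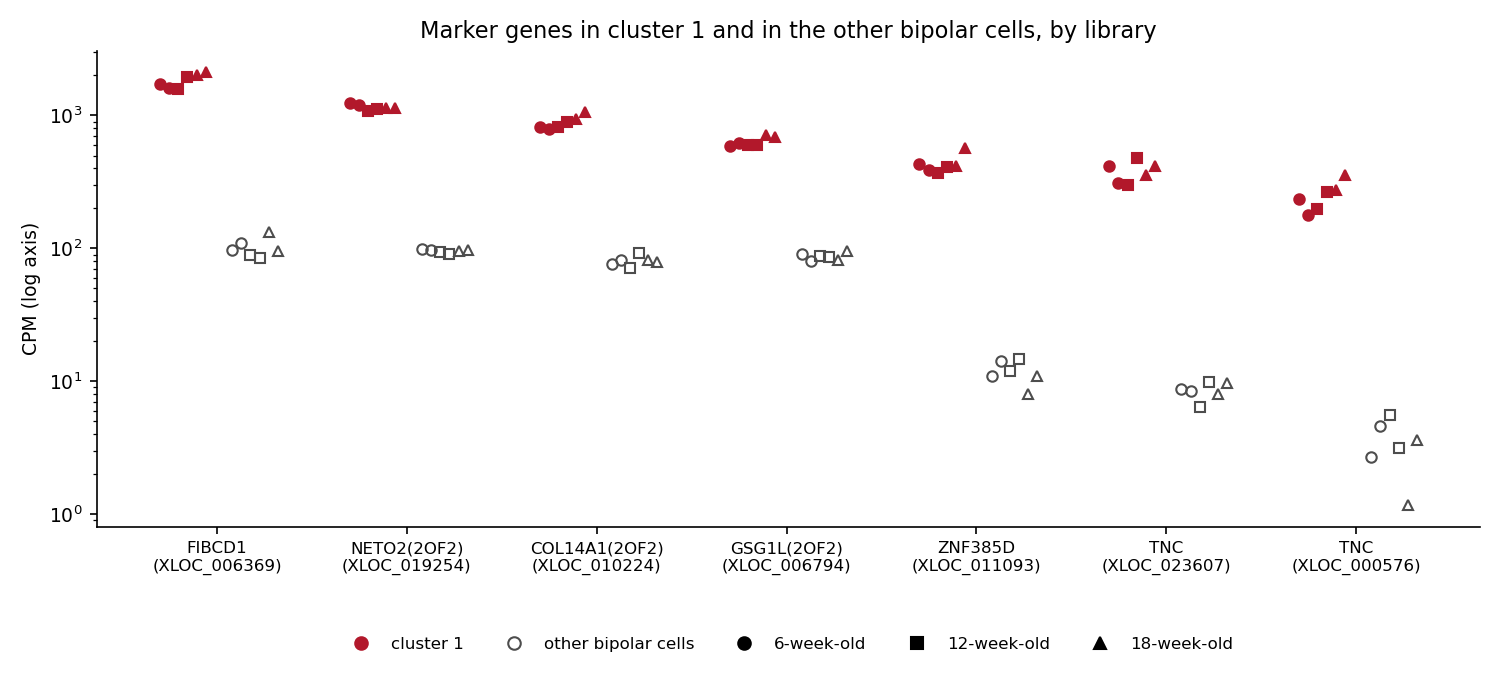
Levels of the marker entries of cluster 1 in CPM on a log axis, with 1 point per library, filled for cluster 1 and open for the other bipolar cells pooled, and point shapes for the 3 ages. For every entry shown, all 6 points of cluster 1 lie above all 6 points of the other bipolar cells, as for FIBCD1 (1569 to 2109 CPM, against 84.3 to 133 CPM).

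The bipolar label was checked against genes that mark bipolar cells. All 10 entries reached 20 CPM in cluster 1 or in the other bipolar cells. CABP5A, a calcium-binding protein of bipolar cells, had 3200, 3158, 3112, 3283, 2466 and 2428 CPM, lower than the 9056 to 10879 CPM of the other bipolar cells and above the 505 CPM of the highest annotated type outside the bipolar cells. NEUROD4(2OF2), 1 of the bipolar transcription factors listed here, averaged 928 CPM, against 346 CPM. OTX2, a homeobox gene of photoreceptors and bipolar cells, was low in the cluster, with 16.5 CPM on average against 74.9 CPM, and CABP5B had 74.7 CPM, against 613 CPM. Of the 10 entries 3 (30%) were at least 2 times higher and 4 (40%) at least 2 times lower than in the other bipolar cells. Over all genes of at least 20 CPM the shares were 6.13% and 10.2%. The summed level of the 10 entries was 5768 to 7339 CPM in cluster 1, against 12113 to 13777 CPM in the other bipolar cells, without overlap. At 18 against 6 weeks edgeR called 0 of the 10, against 1.6% of all genes tested. Of the 10, 8 were negative and the median log2 fold change was −0.40.

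Beyond the given markers, 3498 genes averaged at least 50 CPM in the cluster. Of these 72 were at least 2 times, 27 at least 5 times and 11 at least 10 times as high as in the highest other bipolar cluster. The 15 highest by this ratio ran from 7.96 to 40.0 times the next cluster, and in all 15 the lowest library of cluster 1 stood above the highest library of that next cluster. COL12A1, a fibril-associated collagen, averaged 94.7 ± 14.3 CPM (SD, n = 6), 40.0 times the level of cluster 16. COL8A2, a chain of the network-forming collagen VIII, averaged 100 CPM, 9.79 times the level of cluster 9. SPP1, the secreted matrix protein osteopontin, averaged 89.0 CPM, 13.3 times the next cluster. PDGFC, a ligand of platelet-derived growth factor receptors, averaged 187 CPM, 20.2 times the next cluster. PRTG(1OF2), protogenin, a surface protein of the immunoglobulin family, averaged 70.1 CPM, and both main TNC entries were among the 15 as well.

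Others of the 15 act at the cytoskeleton, the membrane or the synapse. BASP1, a membrane-bound protein of growth cones and axon terminals, had 645 and 668 CPM at 6 weeks, 615 and 628 CPM at 12 weeks and 650 and 744 CPM at 18 weeks, 25.8 times the 25.5 CPM of cluster 8. It was also high outside the bipolar cells, with 1385 CPM in starburst amacrine cells. LASP1(1OF2), an actin-binding protein, averaged 94.5 CPM, 36.0 times the next cluster, and GAS7 averaged 122 CPM, 16.0 times. SLC8A2B, a sodium-calcium exchanger, averaged 309 CPM, 11.1 times the next cluster. KCNAB1(3OF3), a beta subunit of voltage-gated potassium channels, averaged 162 CPM, 9.88 times the next cluster. GRIA2B and NETO2(1OF2), which belong to glutamate receptors, complete the named genes together with OLA.3162.

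**Figure D2:**
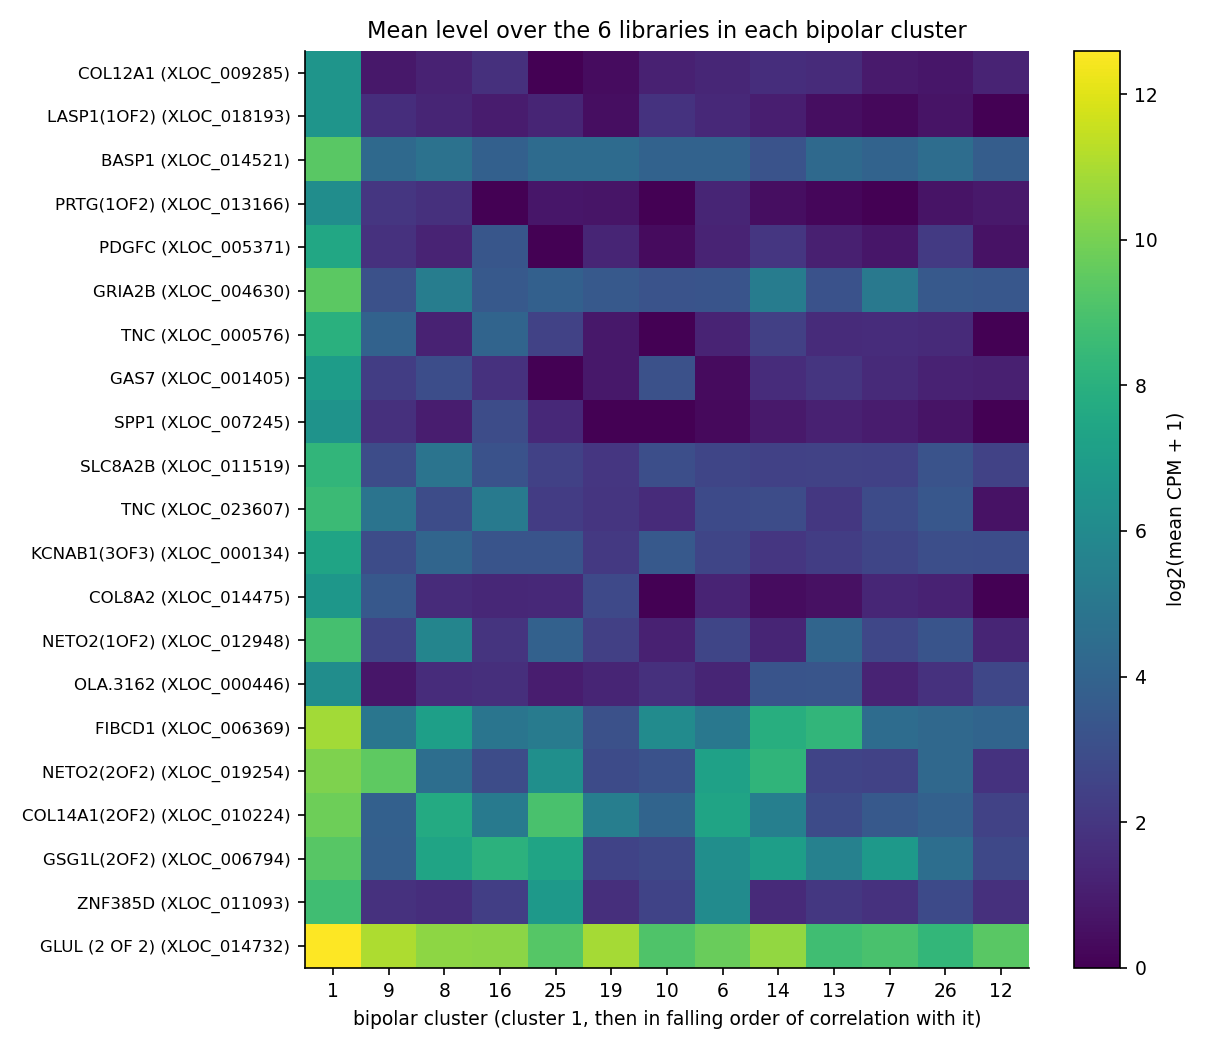
Mean level of the 15 genes with the highest ratio to the next bipolar cluster, of the markers and of GLUL (2 OF 2) in each of the 13 bipolar clusters, as log2(CPM+1), with clusters ordered by likeness to cluster 1 from left to right. Each row has its highest level in the column of cluster 1, while NETO2(2OF2) is also high in cluster 9 (711 CPM) and COL14A1(2OF2) in cluster 25 (512 CPM).

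Receptors for glutamate were looked at because they tell ON from OFF bipolar types in mammals. Of 77 entries for ionotropic and metabotropic receptors and their auxiliary subunits, 31 averaged at least 20 CPM in cluster 1 or in the other bipolar cells. Of these, 10 were at least 2 times higher and 10 at least 2 times lower in the cluster (32.3% each way). Among all 8024 genes of that level 6.13% were higher and 10.2% lower. However, the list holds the markers NETO2(2OF2) and GSG1L(2OF2), and members such as GRIA2B and NETO2(1OF2) reached 20 CPM only in cluster 1. Nothing is therefore read from its count. GRIA2B (XLOC_004630), which encodes the AMPA receptor subunit that keeps calcium out of the channel in mammals, had 657 and 729 CPM at 6 weeks, 588 and 670 CPM at 12 weeks and 610 and 800 CPM at 18 weeks. The other bipolar cells had 12.4 to 24.2 CPM, and cluster 8, the next highest, averaged 39.6 CPM. It was detected in 44.5% of cluster 1 cells and 1.86% of other bipolar cells after thinning. The second NETO2 copy, NETO2(1OF2), had 474, 454, 382, 498, 485 and 564 CPM, against 12.2 to 20.5 CPM, so that both copies of this kainate receptor partner were high. The kainate receptor subunit GRIK1(1OF2) (XLOC_012158) ran from 946 to 1218 CPM, against 252 to 380 CPM. Its mean of 1088 CPM was close to the 1075 CPM of cluster 16, and cluster 26 was higher (1594 CPM).

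Further receptor genes were above the pooled mean in cluster 1. GRID1(1OF2) (XLOC_018636), a delta receptor that works as a synaptic organiser in mice, averaged 489 CPM, against 124 CPM, and cluster 19 had 1047 CPM. GRM4 (XLOC_021229), a metabotropic receptor that couples to inhibitory G proteins, had 166, 137, 153, 249, 196 and 271 CPM, against 12.7 CPM on average. Its lowest library in cluster 1 stood above the highest of cluster 9 (62.3 CPM), the next in order. GRIN2CA, an NMDA receptor subunit, averaged 305 CPM, against 200 CPM, but clusters 12, 13 and 19 had more (331, 416 and 415 CPM). The members below the pooled mean include the other Neto gene, NETO1 (XLOC_014859), with 2.45 to 44.4 CPM, against 350 to 443 CPM and 1416 CPM in cluster 16, although clusters 7, 10, 12, 14 and 19 were lower still (8.09 to 21.3 CPM). GRIK1A averaged 107 CPM, against 407 CPM and 1623 CPM in cluster 14, with 16.6 to 40.2 CPM in clusters 7, 10, 12 and 25. GRIK3 averaged 4.51 CPM, against 31.6 CPM, a mean carried by cluster 12 (581 CPM), and 9 clusters had 3.80 to 8.46 CPM like cluster 1. Relative to the other bipolar cells, GRIK1(1OF2) and both NETO2 copies were thus high, while GRIK1A and NETO1 were below the mean of those cells.

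The mGluR6 cascade of ON bipolar cells was in part below the pooled mean in cluster 1. Of its 22 entries 15 reached 20 CPM, and of these 0 were at least 2 times higher, 8 at least 2 times lower (53.3%) and 7 within a factor of 2. Among all genes of that level 6.13% were higher and 10.2% lower by this measure. However, members such as TRPM1A and GNB3A reached 20 CPM only in the other bipolar cells, and the list was chosen with earlier results known. Nothing is therefore read from this count. TRPM1A (XLOC_013078), the channel gene, had 12.2 and 0 CPM at 6 weeks, 18.6 and 7.72 CPM at 12 weeks and 4.90 and 6.5 CPM at 18 weeks, against 55.1 to 72.5 CPM in the other bipolar cells and 516 CPM in cluster 10. TRPM1B (XLOC_019696) was at 0 to 6.08 CPM, against 26.1 CPM on average and 716 CPM in cluster 25. Both were lower than the pooled cells in each library, but TRPM1A was lower still in 8 of the 12 clusters (0.65 to 5.48 CPM), cluster 9 among them, and TRPM1B had 2.19 to 7.24 CPM in every cluster other than 25. The mGluR6 entry GRM6(1OF2) was at 0 in 5 libraries and at 2.17 CPM in 18w-2, but it was also low in the other bipolar cells (1.31 CPM) and reached only 11.6 CPM in cluster 12. GNB3A, the beta subunit of the G protein, averaged 14.4 CPM, against 152 CPM, with 6.49 CPM in cluster 9 and 4.31 CPM in cluster 16. GNAO1B, an alpha subunit, averaged 188 CPM, against 522 CPM, with 2494 CPM in cluster 10 and 1970 CPM in cluster 25. Clusters 6, 9, 13, 14, 16, 19 and 26 had 143 to 205 CPM of GNAO1B, like cluster 1. PCP2, a modulator of this G protein, varied widely, with 168, 45.0, 171, 19.3, 7.35 and 163 CPM, against 702 CPM on average and 7823 CPM in cluster 10, while 8 clusters had less than cluster 1 (10.1 to 40.3 CPM). PRKCA, a kinase used as a marker of rod bipolar cells in mammals, was close to the other bipolar cells, as PRKCA(1OF2) averaged 603 CPM, against 601 CPM.

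**Figure D3:**
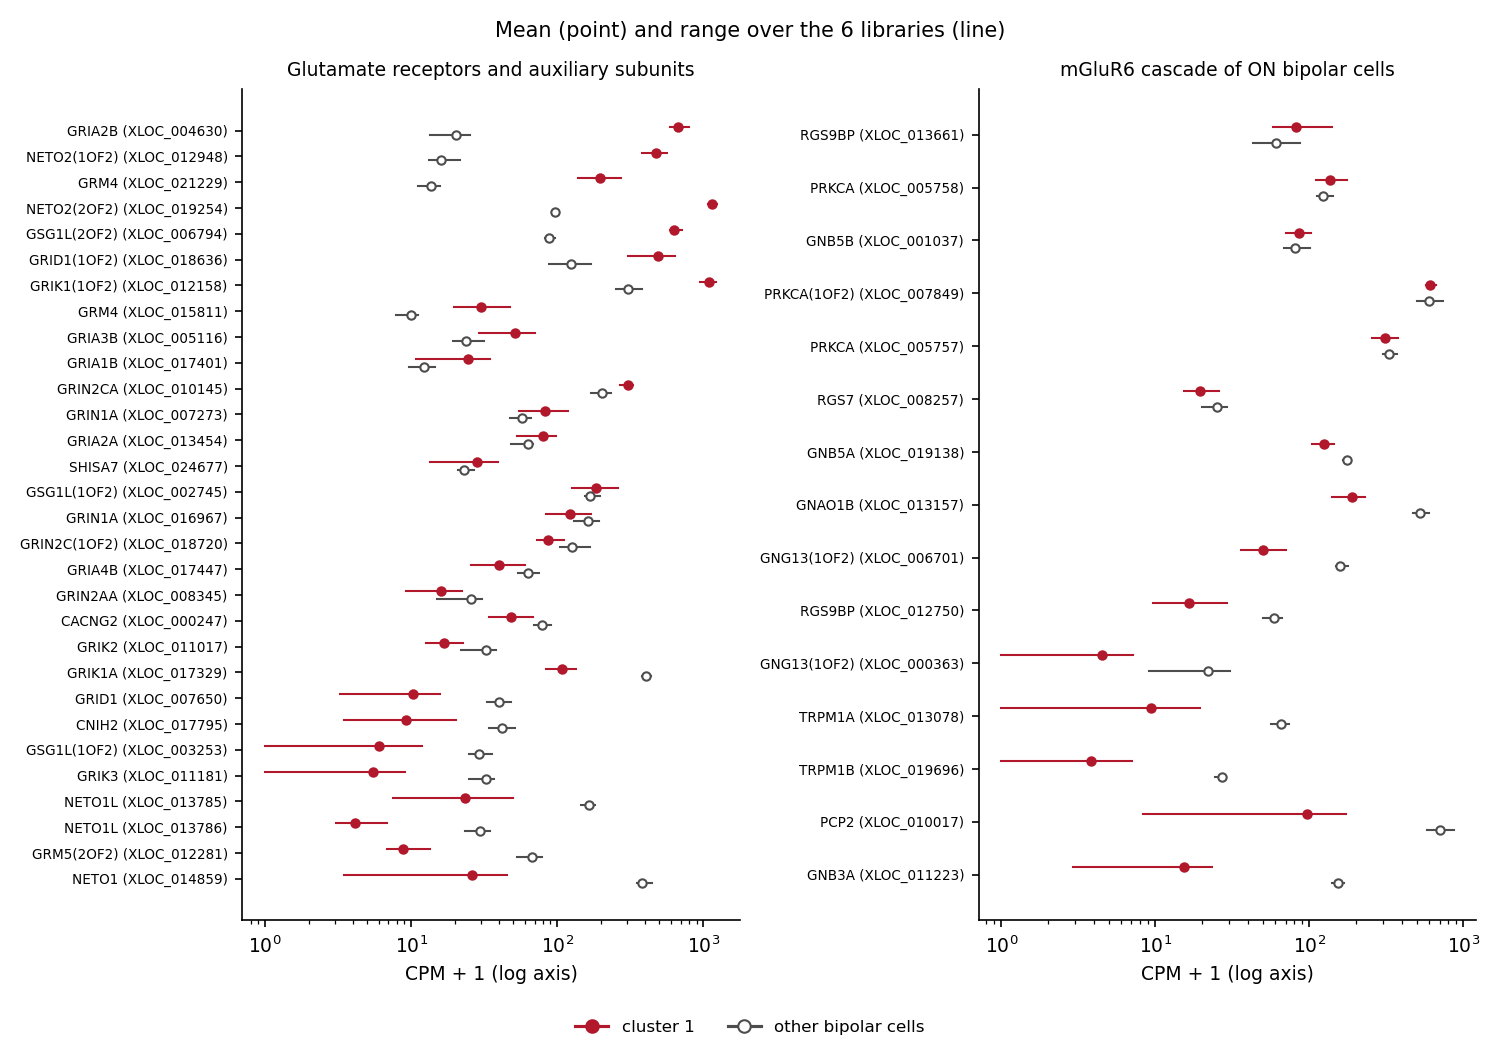
Mean level over the 6 libraries, with the range as a bar, of glutamate receptor and auxiliary subunit entries (left) and entries of the mGluR6 cascade (right) of at least 20 CPM, for cluster 1 and for the other bipolar cells pooled, on a log axis of CPM+1. GRIA2B (676 CPM, against 19.1 CPM) and NETO2(1OF2) (476 CPM, against 15.0 CPM) have the widest gap upwards on the left, and TRPM1A (8.31 CPM, against 64.0 CPM) and GNB3A lie below the pooled cells on the right.

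Receptors for inhibitory transmitters, through which amacrine cells act on bipolar terminals, were higher than the pooled mean or within a factor of 2 of it. Of 18 entries of at least 20 CPM, 7 were at least 2 times higher (38.9%) and 0 at least 2 times lower. Among all genes of that level 6.13% were higher and 10.2% lower by this measure. The list was chosen with earlier results known, so that nothing is read from its count. Levels of its members in single other clusters are not given here, so that a high level may be shared with some of them. GABRA6B (XLOC_017854), a GABA-A receptor alpha subunit, had 618, 639, 572, 722, 804 and 880 CPM, against 151 to 245 CPM. GABRD, the delta subunit of receptors outside synapses in mammals, had 282, 218, 279, 276, 444 and 382 CPM, against 76.2 CPM on average. The ranges of cluster 1 and of the other bipolar cells did not overlap for either gene. GABRR1(1OF2) and GABRR2B, rho subunits typical of bipolar cells, averaged 276 and 79.1 CPM, against 133 and 27.3 CPM. GABBR2 (XLOC_024665) of the metabotropic GABA-B receptor averaged 323 CPM, against 121 CPM. GLRA3, a glycine receptor subunit, averaged 99.1 CPM, against 33.7 CPM.

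Matrix genes were described next. Of 64 entries listed for collagens, laminins, tenascins and other matrix proteins, 18 reached 20 CPM, and 13 of these (72.2%) were at least 2 times higher in cluster 1, while 4 (22.2%) were at least 2 times lower. Over all genes of that level the shares were 6.13% and 10.2%, but the list holds the markers TNC and COL14A1(2OF2), was written with earlier results known, and has members such as LAMB2 that reached 20 CPM only in cluster 1, so that nothing is read from its count. LAMB2 (XLOC_021848), a laminin beta chain, ran from 28.9 to 65.0 CPM, against 0.749 CPM on average. LAMC1 and LAMA5, a gamma and an alpha chain, averaged 107 and 61.8 CPM, against 21.7 and 12.7 CPM, so that genes of all 3 chains of a laminin were high. FN1, fibronectin, averaged 25.5 CPM, against 2.85 CPM. COL5A1 (XLOC_007193), a chain of the fibrillar collagen V, averaged 490 CPM, against 97.8 CPM, with 464 CPM in cluster 14. On the other side HAPLN1A, a link protein of hyaluronan, was at 0 in all 6 libraries of cluster 1, against 22.2 CPM on average. COL25A1, a membrane collagen, averaged 31.3 CPM, against 208 CPM and 1151 CPM in cluster 9, and TNR, tenascin-R, averaged 23.3 CPM, against 70.0 CPM.

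Among adhesion and axon guidance genes 60 entries reached 20 CPM, of which 12 (20%) were at least 2 times higher and 22 (36.7%) at least 2 times lower. Over all genes of that level these shares were 6.13% and 10.2%, and members such as CDH8 reached 20 CPM only in cluster 1. Nothing is therefore read from this count. SDK2B, a sidekick protein of the immunoglobulin family that guides lamina choice in vertebrate retinas, had 525, 547, 535, 697, 574 and 884 CPM, against 37.7 CPM on average and 138 CPM in cluster 8. Its level in the lowest library of cluster 1 was above that of every other bipolar cluster's mean. DSCAMA, of the same family, averaged 298 CPM, against 41.3 CPM, while the related DSCAML1(3OF3) averaged 14.7 CPM, against 223 CPM. CDH8, a classical cadherin found in OFF bipolar cells of mice, averaged 135 CPM, against 7.53 CPM. FLRT1B and FLRT3, ligands of latrophilins, averaged 336 and 165 CPM, against 65.9 and 31.0 CPM. The low members include NTNG1(1OF2), netrin-G1 (44.8 CPM, against 560 CPM and 6952 CPM in cluster 26), the netrin receptor UNC5C (XLOC_023874; 36.3 CPM, against 383 CPM) and NXPH1, neurexophilin (29.4 CPM, against 233 CPM).

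Transcription factors of bipolar types were looked at as well. Of 28 entries of at least 20 CPM, 6 (21.4%) were at least 2 times higher and 18 (64.3%) at least 2 times lower. Over all genes of that level these shares were 6.13% and 10.2%. However, the list holds the marker ZNF385D and was chosen with earlier results known, so that nothing is read from its count. The pooled mean can also be carried by a few of the other clusters. The higher ones included ZNF385D, NEUROD4(2OF2), VSX1, FEZF2 (705 CPM, against 262 CPM) and PROX1(2OF2) (152 CPM, against 34.0 CPM). ISL1, a homeobox gene of ON bipolar cells in mice, was at 2.03 to 8.26 CPM, against 44.7 to 76.7 CPM. SIX3 averaged 42.4 CPM, against 520 CPM and 3824 CPM in cluster 14, and SOX6(2OF2) averaged 4.38 CPM, against 154 CPM. NFIXA (XLOC_013988), NEUROD2 and BHLHE23 averaged 35.3, 6.33 and 36.2 CPM, against 470, 143 and 389 CPM.

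Of 20 potassium channel entries, 4 (20%) were at least 2 times higher and 8 (40%) at least 2 times lower. The shares over all genes were 6.13% and 10.2%. This list was chosen with earlier results known, so that nothing is read from its count. KCND2 (XLOC_019112), a Kv4 channel of the transient A-type current, averaged 420 CPM, against 106 CPM, and its partner KCNIP1B averaged 222 CPM, against 24.2 CPM. The related pair KCND3 (XLOC_021111) and KCNIP2 (1 OF 2) averaged 27.2 and 50.7 CPM, against 200 and 391 CPM. HCN4, a channel opened by hyperpolarisation, averaged 71.2 CPM, against 29.8 CPM. Of the Kv4 channels and their partners, KCND2 and KCNIP1B were thus high and KCND3 and KCNIP2 (1 OF 2) low. Of 42 ribbon synapse entries 1 (2.38%) was at least 2 times higher and 6 (14.3%) at least 2 times lower, against 6.13% and 10.2% of all genes. The 1 higher entry was PCLOB, a piccolo scaffold of the release site, with 4800 to 5857 CPM, against 1833 to 2235 CPM and 4658 CPM in cluster 9.

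The bipolar clusters most like cluster 1 were 9, 8 and 16, with correlations of mean log2(CPM+1) across 9931 genes of 0.852, 0.821 and 0.806, where genes are not independent replicates and all clusters share the 6 libraries. Cluster 9 came first and cluster 8 second in each library. Even so, 196 genes were at least 5 times higher and 125 at least 5 times lower than in cluster 9, and for cluster 8 these numbers were 156 and 217. The examples that follow were picked after their values were seen. MMP17A, a membrane-bound matrix metalloproteinase, averaged 215 CPM, against 1.1 CPM in cluster 9, and PDE2A, a phosphodiesterase, 1182 CPM, against 8.30 CPM. POLR3G, a subunit of RNA polymerase III, averaged 8.12 CPM, against 639 CPM in cluster 9. Against cluster 8 the zinc finger gene SALL1A had 464 CPM, against 4.6 CPM, and the homeobox gene RX3 had 2.71 CPM, against 216 CPM. Against cluster 16 TCF7L2, a transcription factor of the Wnt pathway, had 5.60 CPM, against 1432 CPM, whereas AXIN2(1OF2), an inhibitor in that pathway, had 103 CPM, against 0.510 CPM.

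The share of the cluster was compared between ages. Among bipolar cells it was 7.30% (Wilson 95% interval 6.47 to 8.23) and 7.03% (6.22 to 7.94) at 6 weeks, 8.66% and 8.0% at 12 weeks, and 9.36% (8.23 to 10.6) and 7.89% (6.89 to 9.02) at 18 weeks. Both 18-week-old libraries were above both 6-week-old ones, while the 18- and 12-week-old libraries overlapped. The mean was 8.63% ± 1.04 at 18 weeks and 7.16% ± 0.192 at 6 weeks (SD, n = 2 each), a difference of 1.46 percentage points that did not pass the two-sided exact permutation test (p 0.111, adjusted over 13 clusters 0.289, smallest possible p 0.0222). The difference was 0.725 points without 18w-1 and 2.20 points without 18w-2. As a share of all cells the cluster averaged 4.02% ± 0.0239 at 18 weeks, against 3.40% ± 0.144 at 6 weeks (SD, n = 2 each, exact permutation p 0.111, adjusted 0.361). A loss of these cells with age was not detectable in these libraries. Shares sum to the whole, and the share of rods was 14.7% and 11.3% at 18 weeks and 7.94% and 7.63% at 6 weeks.

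Median UMIs per cell in the cluster were 1826 and 1727 at 6 weeks, 1609 and 1943 at 12 weeks and 1788 and 2183.5 at 18 weeks. The mean was 209 UMIs higher at 18 than at 6 weeks, a difference that did not pass the test (exact permutation p 0.378), and it was 11.5 UMIs without 18w-2 and 407 UMIs without 18w-1.

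Expression was next compared between ages within cluster 1, on UMIs summed per library with edgeR's quasi-likelihood test. At 18 against 6 weeks 52 genes rose and 73 fell among 7828 tested, or 0.664% and 0.933% (1.6% in all), at a false discovery rate of 5%. None of the 8 marker entries tested was among them, and of the 15 genes highest against other clusters 1 was (COL8A2). The count was 239 and 197 without 12w-1 and 12w-2, of which 125 were shared with the full set in both cases. Without an 18- or 6-week-old library it was 87 to 121, of which 60 to 87 were shared. The p-values measure the spread between 2 pools of fish per age.

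Among genes of high level, GLUL (2 OF 2) (XLOC_014732) rose. It is an entry for glutamine synthetase, the enzyme that turns glutamate into glutamine and is known as a protein of Müller glia. In cluster 1 it had 4579 and 4926 CPM at 6 weeks, 5546 and 5154 CPM at 12 weeks and 8205 and 8687 CPM at 18 weeks. Both 18-week-old libraries stood well above the other 4. Its log2 fold change was 0.78 (SE 0.12, edgeR adjusted p 0.000471), and it stayed under 5% in all 14 alternatives, with 0.72 to 0.85. The entry was high in the cluster at each age, since the other bipolar cells had 863 to 1280 CPM and cluster 9, the next highest, averaged 2146 CPM. It was detected in 97.6% of cluster 1 cells and 53.3% of other bipolar cells after thinning. Müller glia averaged 11142 CPM of it. The summed level of 4 other Müller glia marker entries in cluster 1 was 371 and 504 CPM at 6 weeks, 421 and 278 CPM at 12 weeks and 493 and 336 CPM at 18 weeks, with overlap of the ages.

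Genes of the stress response rose in part. Of 27 heat shock and chaperone entries tested 3 rose and 0 fell (11.1% higher, against 0.664% of all genes), 19 had a positive log2 fold change, and the median was 0.19, against −0.00 over all genes tested. HSPA1A (XLOC_003379), an inducible Hsp70 chaperone, had 191 and 310 CPM at 6 weeks, 425 and 380 CPM at 12 weeks and 971 and 616 CPM at 18 weeks. The ages did not overlap, and its log2 fold change was 1.61 (SE 0.21, edgeR adjusted p 6.94e-05). A second HSPA1A entry, XLOC_002541, had 934, 1264, 1460, 1306, 1868 and 1609 CPM from 6 to 18 weeks (0.61, SE 0.15, adjusted p 0.0389), but its adjusted p was 0.385 without 6w-1 and 0.175 without 18w-1. DNAJB5(2OF2), an Hsp40 co-chaperone, had 66.9, 103, 124, 102, 169 and 206 CPM (1.1, SE 0.24, adjusted p 0.0155). That call ended without 6w-1 (0.80, adjusted p 0.255) and without 18w-2 (0.97, adjusted p 0.0838). With cells thinned to 1000 UMIs the adjusted p was 0.142 for DNAJB5(2OF2) and 0.0916 for the second HSPA1A entry, which had 0.0786 with DESeq2. The other bipolar cells had 871 to 1978 CPM of HSPA1A XLOC_003379 at 18 weeks, against 252 to 348 CPM at 6 weeks.

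Of 9 entries listed as targets of the glucocorticoid receptor, 2 rose (22.2%, against 0.664% of all genes). A fall was called for 1 (11.1%, against 0.933%), and the median was 0.15. The authors had reported a rise of FKBP5 with age in Müller glia, immune cells and oligodendrocytes, and of KLF9 in Müller glia. Those results came from a regression over single cells of these same libraries. The list was chosen with earlier results known, so that nothing is read from its count. FKBP5 (XLOC_015884), a co-chaperone of this receptor, had 418 and 470 CPM at 6 weeks, 617 and 583 CPM at 12 weeks and 767 and 906 CPM at 18 weeks (0.86, SE 0.15, edgeR adjusted p 0.0022). It was higher in both 18-week-old libraries than in any other and was called in every alternative. Another FKBP5 entry, XLOC_015883, was not called, at 0.14 on the log2 scale (SE 0.20, adjusted p 0.843). KLF9, a transcription factor induced by glucocorticoids, had 124, 89.97, 161, 98.5, 240 and 243 CPM (1.12, SE 0.23, adjusted p 0.0103), and 0.93 with an adjusted p of 0.0974 without 6w-2 and 0.0627 with thinned cells. Across libraries the other bipolar cells ran from 294 to 772 CPM of FKBP5 (XLOC_015884) and from 96.4 to 239 CPM of KLF9. The level summed over the list was 2593 and 2773 CPM there at 18 weeks, against 2104 and 1842 CPM at 6 weeks. The fall was that of PER1, a gene of the circadian clock, with 353, 252, 283, 257, 167 and 197 CPM (−0.78, SE 0.20, adjusted p 0.0393). The call of PER1 was lost without 6w-1 (−0.53, adjusted p 0.462) and without 18w-1 and 18w-2 (adjusted p 0.171 and 0.0580), and with DESeq2 (0.0937). No other of the 29 clock genes tested was called, and the median of that list was 0.04.

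**Figure D4:**
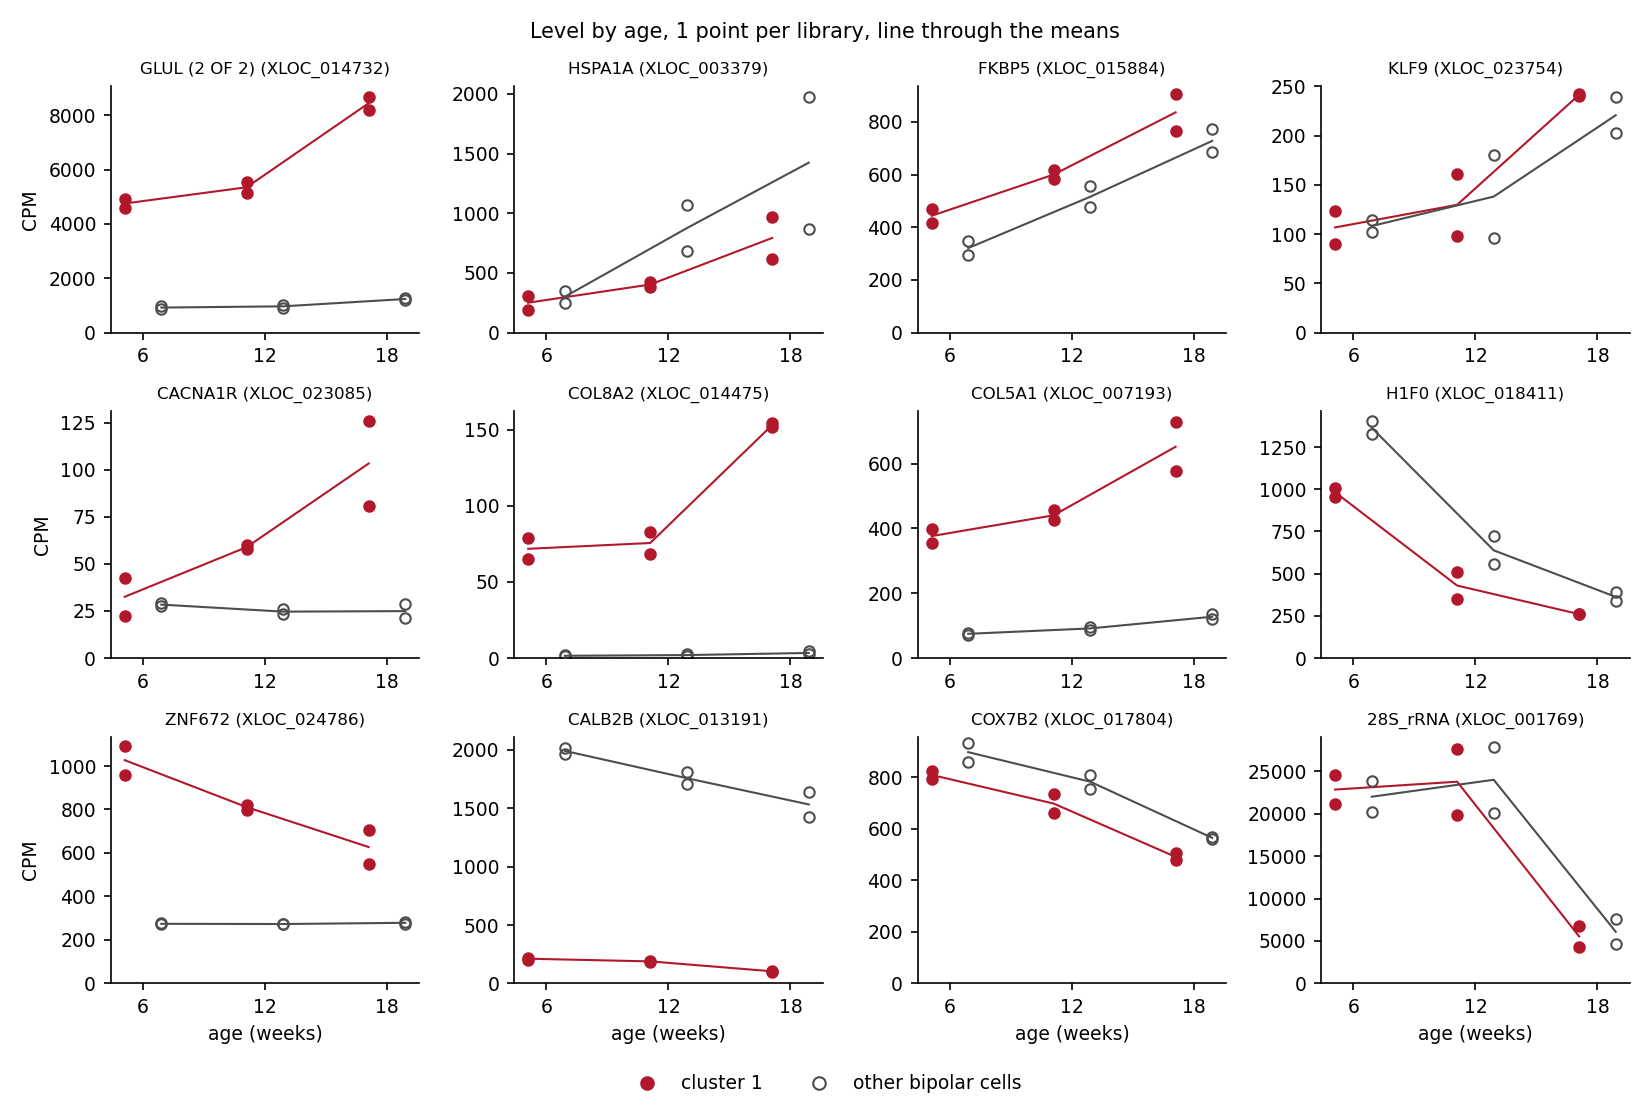
Level in CPM of 12 genes by age in cluster 1 (filled points) and in the other bipolar cells pooled (open points). Each point is 1 library, and lines run through the means of the 2 libraries of an age. In cluster 1 GLUL (2 OF 2), HSPA1A, FKBP5, KLF9, CACNA1R, COL8A2 and COL5A1 are highest at 18 weeks, and H1F0, ZNF672, CALB2B, COX7B2 and 28S_rRNA are lowest at 18 weeks.

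Matrix and receptor genes of the cluster changed in few cases. COL8A2 had 64.9 and 78.7 CPM at 6 weeks, 68.1 and 83.0 CPM at 12 weeks and 154 and 152 CPM at 18 weeks (1.04, SE 0.23, edgeR adjusted p 0.0194), with 0.90 and an adjusted p of 0.205 without 6w-1 and 0.170 with thinned cells. COL5A1 had 355, 398, 425, 456, 576 and 728 CPM, a rise of 0.74 (SE 0.16, adjusted p 0.0153). Its adjusted p was 0.141 without 6w-1, 0.190 without 18w-2 and 0.0515 with thinned cells. COL5A1 was the 1 call among the 17 entries tested of the matrix list, which does not hold COL8A2 (5.88% higher, against 0.664% of all genes, median 0.20). Of 24 glutamate receptor entries 1 rose (4.17%, against 0.664% of all genes). It was GSG1L(1OF2) (XLOC_002745), with 126, 135, 215, 145, 223 and 260 CPM (0.84, SE 0.21, edgeR adjusted p 0.0442). This call was lost without 6w-1 (adjusted p 0.234), 6w-2 (0.102) and 18w-2 (0.224), with DESeq2 (0.125) and with thinned cells (0.142). The receptors that mark the cluster were not called, as GRIA2B had −0.02 (SE 0.15, adjusted p 0.978) and NETO2(1OF2) 0.12 (SE 0.16, adjusted p 0.825).

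Of 18 inhibitory receptor entries 1 fell (5.56%, against 0.933% of all genes) and 0 rose. GABRA5(2OF2), a GABA-A receptor alpha subunit, had 38.5 and 56.2 CPM at 6 weeks, 43.4 and 32.8 CPM at 12 weeks and 9.81 and 4.34 CPM at 18 weeks (−2.77, SE 0.53, edgeR adjusted p 0.00478). It rested on 4 and 2 UMIs at 18 weeks and 19 and 25 UMIs at 6 weeks, a ratio of 0.147 with a counting interval of 0.0512 to 0.347. GABRD, with 444 and 382 CPM at 18 weeks and 282 and 218 CPM at 6 weeks, missed the threshold (0.67, SE 0.17, adjusted p 0.0522). GAD1B, the GABA-making enzyme of amacrine cells, also fell (−2.30, SE 0.54, adjusted p 0.0276), at 50.7, 27.0, 35.1, 30.9, 9.81 and 6.5 CPM. Its adjusted p was 0.344 without 6w-1 and 0.161 without 18w-2. The summed level of 8 amacrine marker entries, GAD1B among them, was 87.2 and 112 CPM in cluster 1 at 6 weeks. It was 78.5 and 56.0 CPM at 12 weeks and 34.3 and 34.7 CPM at 18 weeks. This sum includes the fall of GAD1B itself, so that it is no separate observation for that gene. Amacrine cells made up 6.24% and 8.60% of cells at 18 weeks and 12.1% and 10.9% at 6 weeks. Their part in the fall of GABRA5(2OF2) and GAD1B was not tested.

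Of the other large rises, CACNA1R (XLOC_023085) had 22.3 and 42.7 CPM at 6 weeks, 59.9 and 57.9 CPM at 12 weeks and 80.9 and 126 CPM at 18 weeks (1.64, SE 0.32, edgeR adjusted p 0.00676). Its adjusted p was 0.116 without 6w-1 and 0.0835 without 18w-2. CACNB3A, a beta subunit of voltage-gated calcium channels, had 40.5, 49.5, 59.9, 65.7, 85.8 and 115 CPM (1.11, SE 0.28, adjusted p 0.0393). Without 6w-1 and 6w-2 its adjusted p was 0.286 and 0.0702, and without 18w-2 it was 0.326. RPTOR, the subunit that defines the growth-regulating complex mTORC1, had 48.6, 42.7, 55.8, 67.6, 95.6 and 121 CPM (1.19, SE 0.27, adjusted p 0.0226), with 0.0682 and 0.115 without 6w-1 and 6w-2 and 0.177 without 18w-2. ABCG4 (1 OF 2), a sterol transporter, had 62.8, 42.7, 57.8, 98.5, 130 and 119 CPM (1.17, SE 0.28, adjusted p 0.0286), with 0.191 without 6w-2 and 0.0635 without 18w-1. With thinned cells the adjusted p was 0.177 for CACNA1R, 0.256 for CACNB3A, 0.192 for RPTOR and 0.0840 for ABCG4 (1 OF 2). For CACNA1R, CACNB3A and RPTOR the 18-week-old libraries were above all libraries of the other ages.

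GALNT13, an enzyme that starts O-linked glycans, rose by 1.1 (SE 0.27, edgeR adjusted p 0.0338) to 150 and 99.7 CPM at 18 weeks, against 56.8 and 54.0 CPM at 6 weeks. The adjusted p of GALNT13 was 0.115 and 0.119 without 6w-1 and 6w-2 and 0.290 without 18w-1. CCDC88B rose by 1.38 (adjusted p 0.0226) to 78.4 and 78.0 CPM, against 34.5 and 22.5 CPM, and SEC14L1 by 1.29 (adjusted p 0.0432) to 63.7 and 86.7 CPM, against 36.5 and 22.5 CPM. Without 6w-2 the adjusted p was 0.173 for CCDC88B and 0.279 for SEC14L1, and for SEC14L1 it was 0.317 without 18w-2 and 0.120 without cells over 2 times the median UMIs. With thinned cells it was 0.185 for CCDC88B and 0.192 for SEC14L1. Among entries with clone-based names, BX927349.1 rose by 1.12 (adjusted p 0.00846) and BX005410.1 by 1.21 (adjusted p 0.0442). BX927349.1 had an adjusted p of 0.0708 without 6w-2, and BX005410.1 had 0.0538 and 0.257 without 6w-1 and 6w-2 and 0.224 without 18w-2. GUCA1A, a calcium sensor of photoreceptor guanylate cyclase, was also called (1.22, SE 0.25, adjusted p 0.00991), with 286 and 241 CPM at 6 weeks, 520 and 284 CPM at 12 weeks and 831 and 444 CPM at 18 weeks. Its highest level was in rods (5978 CPM), and its adjusted p was 0.125 without 18w-1, at 0.69, and 0.202 with DESeq2. The summed level of 7 rod marker entries in cluster 1 was 5458 and 4795 CPM at 6 weeks, 7111 and 5716 CPM at 12 weeks and 8778 and 3295 CPM at 18 weeks, and their part in the rise of GUCA1A was not tested.

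Genes of energy metabolism were lower on balance at 18 weeks. Of 69 respiratory chain entries tested 0 rose and 10 fell (14.5%, against 0.933% of all genes), 64 had a negative log2 fold change, and the median was −0.38. The level summed over the list was 22368 and 22732 CPM at 6 weeks, 21229 and 20009 CPM at 12 weeks and 18410 and 16853 CPM at 18 weeks. Both 18-week-old sums were below all others, and the sums of the other bipolar cells were 21276 and 19382 CPM at 18 weeks and 25050 and 26486 CPM at 6 weeks. COX7B2, a subunit of cytochrome c oxidase, had 795, 823, 735, 660, 505 and 477 CPM (−0.77, SE 0.15, edgeR adjusted p 0.00478). UQCRB and UQCRQ of complex III fell by 0.72 (adjusted p 0.0147) and 0.75 (0.0276), and NDUFA11 and NDUFA5 of complex I fell by 0.88 (0.0339) and 0.72 (0.0364). The number of called members was 2 without either 6-week-old library, 10 without 18w-1 and 1 without 18w-2, and 18 and 15 without 12w-1 and 12w-2. Without 18w-2 the adjusted p was 0.0506 for COX7B2, 0.408 for NDUFA11, 0.288 for UQCRQ and 0.384 for NDUFA5. Without 6w-1 and 6w-2 it was 0.174 and 0.0722 for NDUFA11, 0.200 and 0.0722 for UQCRQ, and 0.0668 and 0.210 for NDUFA5, and for UQCRB it was 0.0846 without 6w-1 and 0.0909 without 18w-1. With DESeq2 and with thinned cells 3 members each were called, and the adjusted p was 0.104 and 0.142 for NDUFA11, 0.0805 and 0.286 for UQCRQ, and 0.0916 and 0.0733 for NDUFA5. NDUFA11 had 0.0578 without cells over 2 times the median UMIs. At least 57 members were negative in every alternative.

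Of 75 genes for proteins of the cytosolic ribosome 0 rose and 5 fell (6.67%, against 0.933% of all genes), 64 were negative, and the median was −0.20. Their summed level overlapped between ages, with 71716.5 and 83531 CPM at 6 weeks and 74925 and 64836 CPM at 18 weeks. Against the change in the other bipolar cells, 74 of 76 entries had a more positive change in cluster 1. The median difference was 0.14, against −0.02 over all 14045 genes compared. None of the 76 was called in that comparison. Entries of 1 list are not independent replicates, so that nothing is read from this count. RPL36 had 1107, 1280, 1183, 1095, 772 and 711 CPM (−0.74, SE 0.14, edgeR adjusted p 0.00529). The others were RPS20 (−0.73), RPS28 (−0.67), RPS21 (−0.61) and RPL39 (−0.60), with adjusted p of 0.0490, 0.0209, 0.0209 and 0.0277. No member was called without 6w-2 or without 18w-2, where 47 and 49 members were negative. RPS20 lost the call with DESeq2 (adjusted p 0.0923) and RLE scaling (0.0509), RPS21 without 18w-1 (0.0679) and with thinned cells (0.0576), and RPL39 with thinned cells (0.0634). Proteasome subunits gave no call in 33 entries (median −0.15, 24 negative), where 1.6% of all genes were called. Of 13 immediate early genes, which follow neuronal activity and stress, 0 were called, 12 were positive and the median was 0.31, but their summed level was 865 and 1327 CPM at 18 weeks and 861 and 906 CPM at 6 weeks. The median of immediate early genes was −0.22 without 18w-2 and 0.60 without 18w-1, so that 1 library set its sign.

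**Figure D5:**
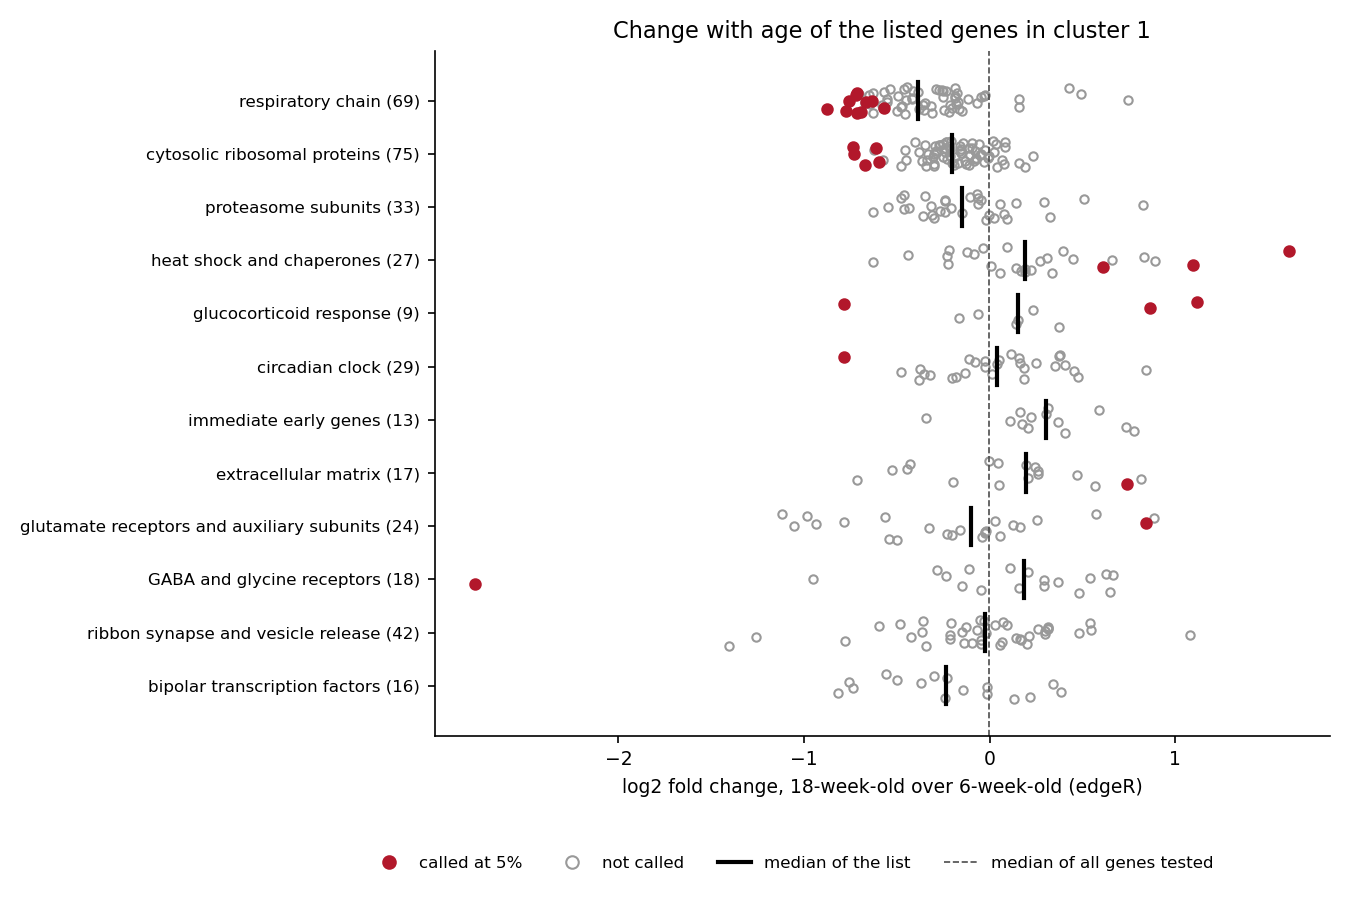
Log2 fold change at 18 against 6 weeks in cluster 1 of each member tested in the gene lists, with called members in red, the median of each list as a black bar and the median of all 7828 genes as a dashed line. Respiratory chain genes lie mostly below the line (median −0.38), and heat shock genes lie mostly above it (median 0.19).

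Several non-coding RNA entries fell. 7SK, a nuclear RNA that restrains transcription elongation, had 647 and 535 CPM at 6 weeks, 650 and 519 CPM at 12 weeks and 24.5 and 32.5 CPM at 18 weeks (−4.40, SE 0.24, edgeR adjusted p 1.36e-11). The rRNA entries 28S_rRNA and SSU_rRNA_eukarya fell by 2.09 (adjusted p 2.34e-08) and 2.18 (adjusted p 1.47e-09). The rRNA share of UMIs in cluster 1 was 2.34% and 2.66% at 6 weeks, 3.03% and 2.20% at 12 weeks and 0.730% and 0.477% at 18 weeks, and in the other bipolar cells it was 0.819% and 0.512% at 18 weeks and 2.25% and 2.58% at 6 weeks. Both groups of cells shared this drop. Without the rRNA and 7SK entries 117 genes were called, of which 116 were among the 125.

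Among protein-coding genes H1F0, a linker histone of cells that have left the cell cycle, fell. It had 957 and 1008 CPM at 6 weeks, 351 and 508 CPM at 12 weeks and 260 and 260 CPM at 18 weeks (−1.97, SE 0.17, edgeR adjusted p 5.16e-08). The 3 ages did not overlap in cluster 1, and across libraries the other bipolar cells ran from 336 to 1404 CPM of H1F0. SMPDL3A, a phosphodiesterase of the sphingomyelinase family, had 158, 196, 109, 98.5, 76.0 and 21.7 CPM (−1.94, SE 0.32, adjusted p 0.000897), and Müller glia had 5026 CPM of it. FYB and AL928657.1 had 157 and 212 CPM, and 282 and 377 CPM, at 18 weeks, against 418 and 403 CPM, and 665 and 729 CPM, at 6 weeks (−1.2 and −1.13, adjusted p 0.000468 and 0.000318). H1F0, SMPDL3A, FYB and AL928657.1 were called in every alternative that gave a value. OLA.26123 (XLOC_012028), an entry with no role known here, had 19.6 and 10.8 CPM at 18 weeks, against 70.9 and 121 CPM at 6 weeks (−2.70, adjusted p 0.000287).

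ZNF672, a zinc finger gene, had 961 and 1093 CPM at 6 weeks, 799 and 823 CPM at 12 weeks and 706 and 548 CPM at 18 weeks (−0.76, SE 0.15, edgeR adjusted p 0.00694), with 0.0698 without 6w-2 and 0.161 without 18w-2. CALB2B, calretinin, a calcium-binding protein, had 203, 220, 192, 185, 108 and 99.7 CPM (−1.08, SE 0.20, adjusted p 0.00478), with 0.0541 without 18w-2 and 0.0605 with thinned cells. CALB2B was below the pooled mean in cluster 1, against 1424 to 2015 CPM in the other bipolar cells and 15681 CPM in cluster 14. Clusters 6, 7 and 16 had less of it than cluster 1 (46.2, 71.1 and 42.3 CPM, against 168 CPM). TMEM14A, a membrane protein, had 85.8 and 73.7 CPM at 18 weeks, against 178 and 157 CPM at 6 weeks (−1.13, adjusted p 0.00694), with 0.0547 without 6w-1 and 0.0947 without 18w-2. USP16, a deubiquitinase of histone H2A, had 53.9 and 39.0 CPM at 18 weeks, against 85.1 and 126 CPM at 6 weeks (−1.23, adjusted p 0.0274), with 0.279 without 6w-2 and 0.241 without 18w-2. SLC25A15B, a mitochondrial ornithine carrier, had 36.8 and 45.5 CPM, against 87.2 and 96.7 CPM (−1.2, adjusted p 0.0338), and its adjusted p was 0.0553 to 0.141 without each 18- or 6-week-old library. With thinned cells it was 0.121 for TMEM14A, 0.461 for USP16 and 0.0840 for SLC25A15B.

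No member was called at 18 against 6 weeks among 16 transcription factors of bipolar types (median −0.23), 11 entries of the mGluR6 cascade (−0.15), 42 of the ribbon synapse (−0.03), 52 for adhesion and guidance (0.13) and 17 potassium channels (0.06). The same held for 22 genes linked to neurodegeneration (0.13), 16 of the oxidative stress response (−0.05), 15 of sterol synthesis (−0.10) and 6 interferon genes (0.13). Of all 7828 genes tested only 1.6% were called, so that 0 calls in lists of this size says little about them. These lists gave no called change, which at this depth does not show that their levels were equal.

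At 12 against 6 weeks edgeR called 1 gene higher and 3 lower (0.0128% and 0.0383% of 7828 genes, 0.0511% in all), with 379 genes at an unadjusted p under 0.05. The named call is H1F0, at −1.2 (SE 0.16, adjusted p 0.000479), called in all 14 alternatives. The other 3 have no gene symbol and were picked out after their values were seen. LOC107396541 was at 84.7 and 102 CPM at 12 weeks, against 6.08 and 2.25 CPM at 6 weeks (4.37, SE 0.49). Nfu_g_1_008019 was at 14.5 and 21.2 CPM, against 75 and 103 CPM (−2.29, SE 0.35), and Nfu_p_1_030969 was at 12.4 and 29 CPM, against 85.1 and 89.97 CPM (−2.05, SE 0.33). Nfu_p_1_030969 stood at 147 and 158 CPM at 18 weeks, above both younger ages. The count at 12 against 6 weeks rose to between 7 and 28 when any 1 library was left out, each of which held the 4 genes.

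At 18 against 12 weeks 9 genes rose and 23 fell (0.115% and 0.294%), with 714 genes at an unadjusted edgeR p under 0.05. LINGO4B, a leucine-rich repeat protein of the neuronal surface, had 147 and 143 CPM at 18 weeks, against 53.7 and 67.6 CPM at 12 weeks (1.2, SE 0.25, adjusted p 0.0231), with 0.0818 without 12w-1. PVALB6, a parvalbumin, had 287 and 421 CPM, against 163 and 201 CPM (0.91, SE 0.20, adjusted p 0.0361), with 0.109 without 12w-1 and 0.447 without 18w-2. PVALB6 was at 251 and 196 CPM at 6 weeks, which overlapped the 12-week-old libraries, and the other bipolar cells averaged 19.7 CPM. HSPA1A (XLOC_003379) rose by 0.93 (adjusted p 0.0359), with 0.0622 without 12w-2 and 0.309 without 18w-1. GLUL (2 OF 2) rose by 0.61 (adjusted p 0.0152), with 0.110 without 12w-2. The falls included those of 7SK (−4.38), OLA.26123 (XLOC_012028; −2.35) and SSU_rRNA_eukarya (−2.34). With thinned cells the adjusted p was 0.0522 for LINGO4B, 0.0834 for PVALB6, 0.306 for HSPA1A, 0.0585 for GLUL (2 OF 2) and 0.251 for H1F0. With DESeq2 it was 0.0965 for PVALB6, 0.445 for HSPA1A and 0.0759 for H1F0, and with only the 2 ages compared 0.116, 0.0755 and 0.152 for PVALB6, HSPA1A and H1F0. H1F0 fell further by 0.77 (adjusted p 0.0473), with 0.451 without 12w-2 and 0.0902 and 0.179 without 18w-1 and 18w-2. The count of 32 was 59 and 55 without 6w-1 and 6w-2 and 35 to 48 without another library.

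The change from 6 to 18 weeks was last compared between cluster 1 and the other bipolar cells, on 2 sums per library with the library as a block. edgeR called 18 of 14045 genes (0.128%), of which 6 had a more positive change (0.0427%) and 12 a more negative change (0.0854%) in cluster 1, while 816 had an unadjusted p under 0.05. DESeq2 and limma called 0. GLUL (2 OF 2) rose more in cluster 1, by 0.41 on the log2 scale (SE 0.08, adjusted p 0.000421). The other bipolar cells had 1280 and 1193 CPM of it at 18 weeks, against 863 and 980 CPM at 6 weeks. The adjusted p of this difference was 0.206 without 6w-2 and 0.220 without 18w-2, at 0.40 and 0.33. CACNA1R differed by 1.89 (SE 0.35, adjusted p 0.000367), with 21.1 and 28.7 CPM at 18 weeks and 29.2 and 27.5 CPM at 6 weeks in the other bipolar cells, and its adjusted p was 0.174 without 6w-1 and 0.729 with thinned cells. ZNF672 differed by −0.73 (SE 0.12, adjusted p 2.71e-05), as the other bipolar cells had 272 to 282 CPM in all libraries, and it had −0.52 (0.190) without 18w-2. The same genes had taken part in the clustering, and the other bipolar cells are a mix of 12 clusters. Over all libraries ZNF672 averaged 828 CPM in cluster 9, against 822 CPM in cluster 1. CACNA1R averaged 140 CPM in cluster 7, against 64.9 CPM in cluster 1. The changes of these genes with age in single other clusters are not given here.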

How the data were processed

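Retinal cells of 6 libraries were profiled in droplets with 3' chemistry. The authors aligned the reads with Cell Ranger 7.0.1 to a custom killifish transcriptome, kept cells with more than 1000 and fewer than 20000 transcripts, and clustered them with Monocle3. The deposited values are raw counts of UMIs per gene and cell, with the authors' cell types and cluster numbers. Removal of doublets is not given in the sources used here, and cells over 2 times the median UMIs were left out in an alternative. Libraries held 4804 to 7235 cells and 17393089 to 24317894 UMIs.

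Counts of cluster 1 and of the other bipolar cells were summed per library. Ages were compared with edgeR 4.0.16 (quasi-likelihood test, TMM scaling, filterByExpr, age as a factor of 3 levels, Benjamini-Hochberg adjustment, threshold 0.05) in R 4.3.3. The difference in change between cluster 1 and the other bipolar cells was tested with the library as a block. Shares and medians were compared by exact permutation tests (scipy 1.17.1). DESeq2 1.42.0 and limma 3.58.1 served as alternatives. Intervals cover counting error only. Named genes were the markers, the 15 genes of at least 50 CPM with the highest ratio to the next bipolar cluster, the 12 largest rises and falls with a gene symbol and at least 50 CPM at 18 against 6 weeks among called genes whose ages did not overlap, up to 3 and 5 each way by similar rules for the other age pairs and the difference between groups of cells, and called members of the lists. Further list members that are named for their levels follow none of these rules and were picked after their values were seen. Members and lists were chosen with earlier results of these data known. The scripts were tested on simulated data. A few genes are counted in the lists but not reported here.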

Additional observations from a re-analysis of the deposited data

Results flagged for a closer look

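The change from 6 to 18 weeks differed between cluster 1 and the other bipolar cells for 18 genes by edgeR's interaction test. The 10 named here are the 5 largest each way with a gene symbol and at least 50 CPM in either group of cells. All 10 lost the call with DESeq2 and with limma, which called 0 genes. A more positive change in cluster 1 was found for CACNA1R (1.89 on the log2 scale), CCNB2 (2 OF 2) (1.2), BASP1 (1.19), PLEKHA5(1OF2) (0.99) and GLUL (2 OF 2) (0.41). A more negative one was found for LMO4B (−3.05), RGS8 (−2.66), PTPRSA (−1.57), ZNF672 (−0.73) and HSPA1A XLOC_002541 (−0.51).

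BASP1 was not called with age within cluster 1 (0.03, SE 0.14, edgeR adjusted p 0.953), whereas the other bipolar cells had 13.8 and 9.45 CPM at 18 weeks and 23.2 and 25.3 CPM at 6 weeks. Without 18w-2 the difference was 0.81 with an adjusted p of 0.384. CCNB2 (2 OF 2), a cyclin of mitosis, had 257 and 256 CPM in cluster 1 at 18 weeks and 154 and 191 CPM at 6 weeks, and the other bipolar cells had 10.1 to 17.4 CPM. Its adjusted p was 0.159 without 6w-1 and 0.286 without 18w-2. PLEKHA5(1OF2) had 218 and 225 CPM at 18 weeks and 160 and 119 CPM at 6 weeks, and lost the call without 6w-1 (0.174) and without 18w-1 and 18w-2 (0.108 and 0.0701).

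The 3 largest negative differences rested on few UMIs. LMO4B, a LIM-domain transcription regulator, had 3 and 1 UMIs at 18 weeks and 17 and 14 UMIs at 6 weeks, a ratio of 0.139 (counting interval 0.0357 to 0.394), while the other bipolar cells had 102 and 134 CPM at 18 weeks and 103 and 101 CPM at 6 weeks. RGS8, a regulator of G protein signalling, had 2 and 3 UMIs, against 19 and 19 UMIs (0.142, 0.0436 to 0.361), and PTPRSA, a receptor phosphatase, had 13 and 5 UMIs, against 38 and 17 UMIs (0.353, 0.195 to 0.611). Without 18w-2 the adjusted p was 0.535 for LMO4B, 0.0868 for RGS8 and 0.957 for PTPRSA. It was 0.0627 for LMO4B and 0.888 for PTPRSA without 6w-1, and for RGS8 it was 0.0537 without 6w-2 and 0.174 without 18w-1. These genes were highest in other bipolar clusters, LMO4B and PTPRSA in cluster 13 and RGS8 in cluster 12. The second HSPA1A entry, XLOC_002541, rose less in cluster 1 than in the other bipolar cells, which had 3864 and 2834 CPM at 18 weeks and 1533 and 1377 CPM at 6 weeks. Its adjusted p was 0.978 without 6w-2 and 0.402 without 18w-1. With thinned cells the difference also lost the call for CACNA1R, BASP1, CCNB2 (2 OF 2), LMO4B, RGS8 and PTPRSA (edgeR adjusted p 0.694 to 1.00), and PTPRSA lost it with only the 2 ages compared (0.101) and without cells over 2 times the median UMIs (0.241).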

How the results depend on the processing

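No called gene changed sign, but medians of lists did at 18 against 6 weeks. That of immediate early genes was −0.22 without 18w-2, of bipolar transcription factors 0.03 with thinned cells, of the mGluR6 cascade 0.13 without 6w-1 and 0.00 with thinned cells, of glutamate receptors 0.01 without 18w-1 and 0.00 with thinned cells, and of clock genes −0.01 without 18w-2, −0.05 with thinned cells and −0.02 without cells over 2 times the median UMIs. At 18 against 6 weeks the 125 calls became 45 with DESeq2 (10 higher and 35 lower) and 66 with cells thinned to 1000 UMIs, and 87 to 239 when 1 library was left out. The other settings gave 113 to 184. At 12 against 6 weeks the 4 calls became 2 with DESeq2, 28 with no filter on low counts, 8 with the replicate block and 7 to 28 when 1 library was left out. At 18 against 12 weeks the 32 calls became 14 with DESeq2, 76 with no filter, 16 with only the 2 ages compared, 20 with thinned cells and 35 to 59 when 1 library was left out. The 18 calls of the difference between cluster 1 and the other bipolar cells became 0 with DESeq2, 0 with limma, 6 with thinned cells and 13 to 22 when 1 library was left out. The share among bipolar cells differed by 0.725 to 2.20 points, the share of all cells by 0.515 to 0.718 points and the median UMIs by 11.5 to 407 when 1 library was left out.

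The labels do not tie equal replicate numbers together. Same-numbered libraries had correlations of deviations of −0.008, 0.028 and 0.051, which cannot decide whether they were processed as pairs. With the replicate block 128 genes were called at 18 against 6 weeks, 120 of them among the 125, and 34 at 18 against 12 weeks. Each age had 2 pools of fish, so that age cannot be told apart from anything else that differed between the libraries of an age. Depth limited genes of low level, such as LMO4B and RGS8.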
